A study of Mus musculus with 41 samples.

Results

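The genes described here are the interleukin-6 (IL-6) family cytokines, their receptor chains and the Socs3 feedback arm, measured in fetal mouse lung with and without dexamethasone. The 10 members, Il6, Il11, Lif, Il6ra, Il6st, Il11ra1, Lifr, Osmr, Stat3 and Socs3, were found by symbol in all 4 count tables, each of which holds 24371 genes. The members were selected on their levels and dexamethasone ratios in these same tables, whose earlier results were known, so their values here are a description, and the adjusted p-values printed beside them only place them among all genes tested. Dexamethasone is a synthetic glucocorticoid, and the study asks how glucocorticoid acts on the mesenchyme of the lung before birth.

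IL-6 family cytokines act through receptors that share the signalling chain gp130, encoded by Il6st. IL-6 and IL-11 bind a private chain, encoded by Il6ra and Il11ra1, that then recruits gp130, whereas LIF pairs gp130 with the Lifr product and, in the mouse, oncostatin M pairs it mainly with the Osmr product. Receptor engagement activates JAK kinases and the transcription factor STAT3, and STAT3 induces Socs3, whose protein binds gp130 and JAKs and ends the signal. In lung the family is known mostly from inflammation, injury and fibroblast responses, and glucocorticoids are known to restrain many inflammatory cytokine genes.

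Of 11 bulk libraries, 4 came from mesenchyme of fetuses whose dams received 1 mg/kg dexamethasone intraperitoneally at E18.5 and 2 from mesenchyme of fetuses of saline-injected dams, all collected 2 h after injection. These 6 pools came from Twist2Cre;Rosa26mT/mG fetuses, lungs being pooled by genotype, and hold cells sorted as tdTomato-/GFP+, so the Twist2 promoter defines the labelled cells through Cre. A further library came from E18.5 CD106+ cells labelled with 1 mg/kg dexamethasone, and 2 CD106+ and 2 CD106- libraries came from E18.5 lung with no treatment named. CD106 is the adhesion protein encoded by Vcam1. The labels give no time after injection and no strain for these 5 libraries, and describe CD106 bead selection for the chromatin accessibility samples of the study, 4 in number and not analysed here. The remaining 26 samples are single lung cells of wild type C57Bl6/J fetuses, 15 from dams given 2 mg/kg dexamethasone at E17.5 and 11 from dams given saline, collected 24 h later. The labels do not state whether libraries of a group derive from different litters. The p-values therefore reflect only how far these libraries vary, and that variation may be technical.

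Promoter windows of RefSeq (GRCm38.p6) were read for all 10 members, 13 windows of 300 bases that run from 250 bases before to 50 bases after an annotated start. The 5 windows below are shown because the AP-1 type motif TGANTCA stood in a window of Il6, Il11, Lif and Osmr, the 3 ligand genes and the receptor gene with the largest ratio in the treated CD106+ library, and the STAT type motif TTCNNNGAA stood in that of Socs3. Capitals mark the match, and both motifs read the same on either strand. The windows are chr5:30012864-30013163, plus strand, for Il6, chr7:4778092-4778391, minus strand, for Il11, chr11:4257318-4257617, plus strand, for Lif, chr15:6874264-6874563, minus strand, for Osmr, and chr11:117969317-117969616, minus strand, for Socs3.

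Il6: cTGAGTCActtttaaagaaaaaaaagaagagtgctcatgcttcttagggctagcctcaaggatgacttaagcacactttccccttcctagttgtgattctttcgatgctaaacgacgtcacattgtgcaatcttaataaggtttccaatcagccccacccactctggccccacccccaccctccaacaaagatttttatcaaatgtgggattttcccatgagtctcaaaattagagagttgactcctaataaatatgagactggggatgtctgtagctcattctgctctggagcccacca

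Il11: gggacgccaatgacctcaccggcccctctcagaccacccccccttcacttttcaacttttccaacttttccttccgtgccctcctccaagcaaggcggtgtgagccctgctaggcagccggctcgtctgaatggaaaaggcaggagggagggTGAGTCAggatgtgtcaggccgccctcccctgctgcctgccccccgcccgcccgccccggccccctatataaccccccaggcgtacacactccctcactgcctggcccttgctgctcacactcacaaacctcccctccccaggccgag

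Lif: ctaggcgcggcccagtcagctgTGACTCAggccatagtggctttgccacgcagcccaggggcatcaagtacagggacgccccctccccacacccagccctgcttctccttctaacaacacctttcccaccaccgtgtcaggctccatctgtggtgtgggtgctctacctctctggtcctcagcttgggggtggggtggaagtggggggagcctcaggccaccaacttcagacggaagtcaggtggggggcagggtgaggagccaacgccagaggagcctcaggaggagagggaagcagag

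Osmr: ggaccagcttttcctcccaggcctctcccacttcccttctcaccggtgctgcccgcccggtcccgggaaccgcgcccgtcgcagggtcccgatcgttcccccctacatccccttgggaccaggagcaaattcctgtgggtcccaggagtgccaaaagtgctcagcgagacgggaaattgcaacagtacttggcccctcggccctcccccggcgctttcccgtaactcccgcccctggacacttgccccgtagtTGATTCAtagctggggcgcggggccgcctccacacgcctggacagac

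Socs3: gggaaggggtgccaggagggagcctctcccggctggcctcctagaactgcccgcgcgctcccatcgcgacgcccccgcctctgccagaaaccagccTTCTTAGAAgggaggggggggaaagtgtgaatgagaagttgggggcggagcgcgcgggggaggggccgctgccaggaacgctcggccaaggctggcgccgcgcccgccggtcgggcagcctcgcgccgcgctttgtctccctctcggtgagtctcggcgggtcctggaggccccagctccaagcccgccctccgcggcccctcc

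The AP-1 type match lay 249 to 243 bases before the start of Il6, 98 to 92 bases before that of Il11 and 228 to 222 bases before that of Lif, while in Osmr it lay within the transcribed bases 3 to 9. TGANTCA occurred in 7.81% of the 32851 mouse promoter windows of this length. The Socs3 match, TTCTTAGAA, lay 154 to 146 bases before the start, and TTCNNNGAA occurred in 8.30% of windows. The half-site AGAACA of the glucocorticoid response element, searched on both strands, was in the Stat3 window among members and in 19.0% of all windows. The full element was not searched. No match overlapped another, and a match is a description of letters, not of a bound site.

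The bulk libraries held 1670896 to 7133941 counts, and levels are CPM, the count scaled to the same column total in every library, which compare a gene between libraries and not with other genes. Drug response genes were higher in the treated mesenchyme, where 7 of 10 check genes rose (edgeR), among them Fkbp5, a receptor chaperone, at 176 to 260.2 CPM in dexamethasone pools and 28.7 and 40.7 CPM in saline pools. Vcam1 separated the CD106 fractions, at 551 and 687 CPM in CD106+ libraries against 1.35 and 3.00 CPM in CD106- libraries, and stood at 268 CPM in the treated CD106+ library. Mesenchyme markers summed to 7899 to 9339 CPM in dexamethasone pools and 9499 and 12489.8 CPM in saline pools, with Twist2 itself at 0.901 CPM or less in all 6. The pools differed in pup sex, since the transcript Xist of the inactive X stood at 374, 11111, 12.6 and 6.59 CPM in dexamethasone pools 1 to 4 and at 33133 and 20880 CPM in saline pools, so sex and treatment cannot be told apart there. Chondrocyte markers, led by Col2a1 and Acan, summed to 14.0 to 364 CPM in dexamethasone pools and 1411 and 568 CPM in saline pools. Of these markers 0 of 5 tested passed the edgeR test. Smooth muscle and pericyte markers summed to 1575 to 1991 CPM in dexamethasone pools and 2323 and 2388 CPM in saline pools (0 of 9 passed). Cardiac muscle markers summed to 205 to 495 CPM in dexamethasone pools and 504 and 796 CPM in saline pools (0 of 5 passed). The part of these cells in the members' levels was not tested.

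**Figure D1:**
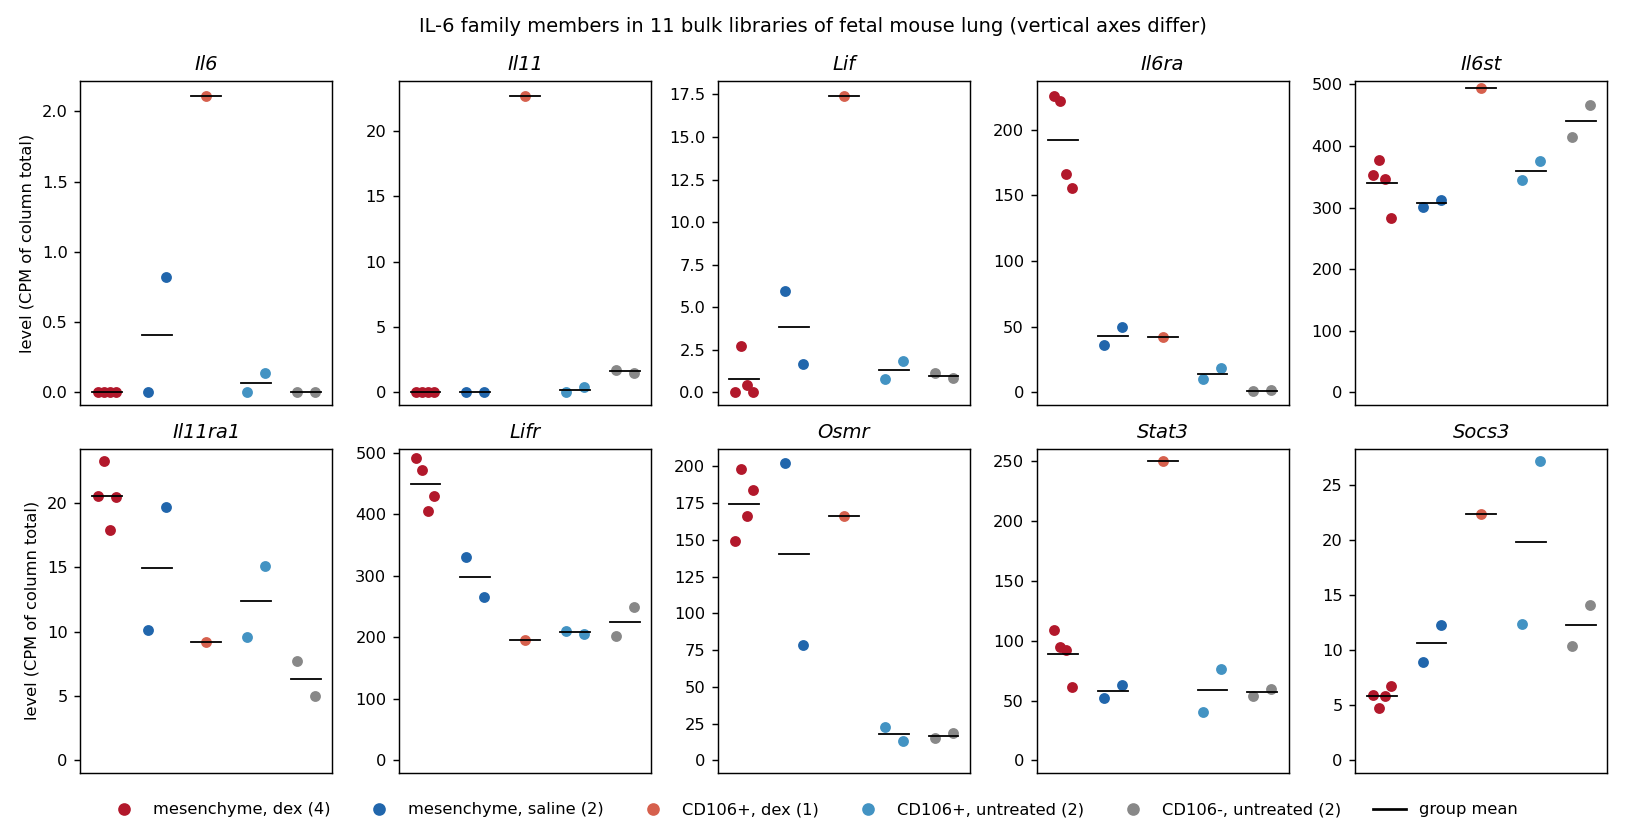
Level of each member in CPM of the column total (vertical axis, scaled per panel) in the 11 bulk libraries, 1 point per library, with group means as black lines. Il6ra stood at 155 to 226 CPM in dexamethasone mesenchyme, above every other library, and Il6, Il11, Lif and Stat3 were highest in the 1 dexamethasone CD106+ library.

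In Twist2Cre mesenchyme 2 h after dexamethasone, the IL-6 receptor gene Il6ra was the member that rose, while the ligand genes were too low to be tested and the other receptor chains, Stat3 and Socs3 did not pass the test. The fit called 306 of 11356 genes tested at an edgeR adjusted p under 0.05, or 2.69%, with 222 higher (1.95%) and 84 lower (0.740%) under dexamethasone. Of the 7 members tested, 1 was higher, Il6ra, and 0 were lower. The number of calls fell to 179, 186 and 193 without dexamethasone pool 1, dexamethasone pool 4 and saline pool 1, with Il6ra among them each time.

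Il6 had no count in any dexamethasone pool and 0 and 0.823 CPM, 0 and 2 counts, in the saline pools. Il11 had no count in any of the 6 pools, where 3 counts, the number a count of 0 allows, correspond to 0.710 to 1.80 CPM. Lif, whose protein signals through Lifr and gp130, stood at 0, 2.72, 0.450 and 0 CPM in dexamethasone pools and 5.98 and 1.65 CPM in saline pools. Il6 and Il11 thus stayed below 3 counts in each sorted pool, while Lif had 8 counts in dexamethasone pool 2 and 10 and 4 counts in saline pools 1 and 2, and the Lif ranges overlapped. Saline pool 1, with the highest Lif of the 6, also had the highest leukocyte marker sum, 107 CPM against 10.5 to 29.1 CPM in dexamethasone pools and 25.1 CPM in saline pool 2, with 9 of 10 markers detected, Lyz2 at 62.8 CPM and C1qa at 0; the part of these cells in the Lif level was not tested.

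Il6ra, which encodes the private IL-6 receptor chain (chromosome 3, 89869324 to 89913196), stood at 226, 222, 166 and 155 CPM in dexamethasone pools and at 35.9 and 49.8 CPM in saline pools. Every dexamethasone pool lay more than 3 times above either saline pool, and 9.99% of all genes tested had all dexamethasone pools above both saline pools. The log2 fold change was 2.23 (SE 0.28, edgeR adjusted p = 0.000173, n = 4 and 2). It ranged from 2.08 to 2.44 with each pool left out, with adjusted p of 0.0046 or less. In bulk samples a change in the number of cells of a type and a change of RNA per cell cannot be told apart.

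The shared chain moved little. Il6st stood at 353, 378, 347 and 284 CPM in dexamethasone pools and at 301 and 313 CPM in saline pools, and the groups overlapped (log2 fold change 0.21, SE 0.21, edgeR adjusted p = 0.75). Lifr, the LIF receptor gene, stood at 492, 473, 405 and 429.5 CPM in dexamethasone pools and at 331 and 266 CPM in saline pools. All dexamethasone pools lay above both saline pools, as in 9.99% of all genes tested. The difference did not pass the test (log2 fold change 0.65, SE 0.22, edgeR adjusted p = 0.15). Osmr, the oncostatin M receptor gene, whose annotated span lies 215642 bases from that of Lifr on chromosome 15, stood at 149, 198, 166 and 184 CPM in dexamethasone pools and at 202 and 78.6 CPM in saline pools. The 2 saline pools enclosed all dexamethasone pools, and the log2 fold change was 0.36 (SE 0.32, edgeR adjusted p = 0.72). It was -0.19 without saline pool 2 and 1.28 without saline pool 1. Il11ra1, the IL-11 receptor gene, stood at 20.6, 23.3, 17.9 and 20.5 CPM in dexamethasone pools and at 10.2 and 19.7 CPM in saline pools, and these ranges overlapped (log2 fold change 0.52, SE 0.44, edgeR adjusted p = 0.69). Il11ra1 has a near-identical copy, Il11ra2, and fractional counts in 7 of 11 libraries, so its level is uncertain.

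Stat3, the transducer, stood at 109, 94.8, 91.9 and 61.1 CPM in dexamethasone pools and at 52.1 and 63.3 CPM in saline pools. Dexamethasone pool 4 fell between the saline pools and the other 3 lay above them (log2 fold change 0.69, SE 0.29, edgeR adjusted p = 0.28). Socs3, the feedback inhibitor, stood at 5.92, 4.76, 5.85 and 6.79 CPM in dexamethasone pools and at 8.98 and 12.3 CPM in saline pools, from 13 to 25 and from 15 to 30 counts. All dexamethasone pools lay below both saline pools, as in 13.0% of all genes tested, but at these counts the difference did not pass the test (log2 fold change -0.80, SE 0.61, edgeR adjusted p = 0.64).

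Around the members, 2 of 48 pathway genes tested were called in mesenchyme, or 4.17%, where 2.69% of all genes were. Of 8 JAK kinases and other STATs tested, 0 passed (median log2 fold change 0.35, against -0.012 over all genes tested). The smallest p was that of Stat5a, a STAT of prolactin and cytokine signalling (2.38, SE 0.83, edgeR adjusted p = 0.16). With 9 counts over both saline pools, at 0.598 to 3.29 CPM, Stat5a passed the filter on low counts through the dexamethasone pools alone. The kinase gene Tyk2 followed with -1.46 (SE 0.57, edgeR adjusted p = 0.23). Of 11 other SOCS genes and inhibitors tested, 0 rose and 1 fell (median 0.29), namely Socs5, at 13.0, 13.6, 6.30 and 23.4 CPM in dexamethasone pools and 55.7 and 40.3 CPM in saline pools (log2 fold change -1.70, SE 0.44, edgeR adjusted p = 0.047). Socs5 lost its call whichever pool was left out except dexamethasone pool 4 (edgeR adjusted p of 0.074 to 0.31). The phosphatase gene Ptprj followed with 0.87 (SE 0.35, edgeR adjusted p = 0.25).

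Of 19 STAT3 target genes tested, 0 passed and the median log2 fold change was 0.56. Cebpd, a transcription factor gene that both STAT3 and glucocorticoid are known to induce, stood at 173, 201, 102 and 129 CPM in dexamethasone pools and at 73.7 and 78.7 CPM in saline pools. All dexamethasone pools lay above both saline pools, as in 9.99% of all genes tested. The log2 fold change was 1.06 (SE 0.29, edgeR adjusted p = 0.059), with adjusted p of 0.026 without dexamethasone pool 3. The kinase gene Pim3 followed with 2.78 (SE 0.86, edgeR adjusted p = 0.10). With 6 counts over both saline pools, at 1.23 to 1.80 CPM, Pim3 passed the filter on low counts through the dexamethasone pools alone. Of 8 genes of inflammatory induction tested, 1 rose and 0 fell (median 0.43). This was Nfkbia, which encodes the NF-kappaB inhibitor IkappaB-alpha, at 63.0, 70.0, 45.0 and 57.7 CPM in dexamethasone pools and 10.8 and 20.2 CPM in saline pools (log2 fold change 1.98, SE 0.38, edgeR adjusted p = 0.0070), and its call was lost without saline pool 1 (edgeR adjusted p = 0.071). Tnfaip3, another NF-kappaB inhibitor gene, had a log2 fold change of 1.39 (SE 0.48, edgeR adjusted p = 0.15). Among other receptor chains and ligands, 1 gene each could be tested, the ciliary neurotrophic factor receptor gene Cntfr at 1.25 (SE 0.57, edgeR adjusted p = 0.34) and the cardiotrophin gene Ctf1 at -0.36 (SE 1.19, edgeR adjusted p = 0.95).

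**Figure D2:**
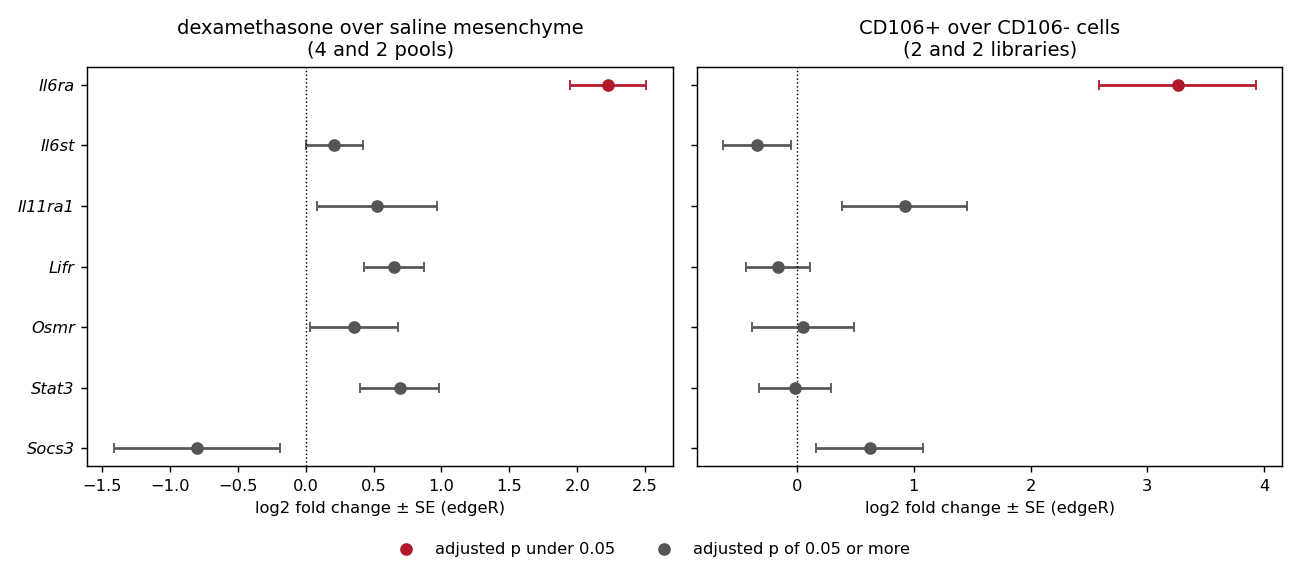
Log2 fold change with its SE from edgeR (horizontal axis) for the 7 members that could be tested, for dexamethasone over saline mesenchyme on the left and CD106+ over CD106- cells on the right. Il6ra stood at 2.23 and 3.26, and the other 6 members lay between -0.80 and 0.92 with adjusted p above 0.05.

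Between CD106+ and CD106- cells without treatment, Il6ra was again the called member. The fit called 1239 of 12364 genes tested (10.0%), of which 825 were higher (6.67%) and 414 lower (3.35%) in CD106+ cells, and of the 7 members tested 1 was higher and 0 were lower. The calls numbered 2756 without CD106+ library 1, 546 without CD106- library 1 and 686 without CD106- library 2. Il6ra stood at 10.0 and 18.503 CPM, 50 and 132 counts, in CD106+ libraries and at 0.769 and 2.00 CPM, 4 and 12 counts, in CD106- libraries. Both CD106+ libraries lay above both CD106- libraries, as in 25.7% of genes tested (log2 fold change 3.26, SE 0.67, edgeR adjusted p = 0.0016, n = 2 and 2). Il6ra passed the filter on low counts through the CD106+ libraries alone, and it was no longer called without CD106- library 1 (log2 fold change 2.71, edgeR adjusted p = 0.052). Markers of several cell types moved with this comparison. Of mesenchyme markers tested 8 of 8 rose, with 9 of 9 detected in both CD106+ libraries and 8 in each CD106- library, where Tcf21 or Twist2 was at 0, and summing to 4476 and 6725 CPM in CD106+ libraries against 732 and 1063 CPM in CD106- libraries. Of endothelial markers 5 of 7 rose, summing to 122 and 95.6 CPM in CD106+ libraries against 20.4 and 14.8 CPM in CD106- libraries. Of epithelial markers 5 of 8 fell, summing to 2582 and 4229 CPM in CD106+ libraries against 6075 and 5427 CPM in CD106- libraries, as did 3 of 6 mesothelial and 5 of 5 erythroid markers. CD106+ library 1 stood apart with cardiac muscle markers at 4387 CPM, against 137 CPM in CD106+ library 2, and Il6ra stayed called without it (log2 fold change 3.58, edgeR adjusted p = 3.1e-06). The part of these cells in the Il6ra level was not tested.

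The remaining members did not separate the fractions past the test. Il6st stood at 345 and 376 CPM in CD106+ libraries and 415 and 467 CPM in CD106- libraries, below both as were 22.1% of genes tested (log2 fold change -0.34, SE 0.29, edgeR adjusted p = 0.62). Il11ra1 stood at 9.62 and 15.1 CPM in CD106+ libraries and 7.69 and 4.99 CPM in CD106- libraries, above both as were 25.7% (0.92, SE 0.54, edgeR adjusted p = 0.38). For Lifr, Osmr, Stat3 and Socs3 the fractions overlapped, as the following values show. Lifr stood at 210.3 and 206 CPM in CD106+ libraries and 202 and 249.7 CPM in CD106- libraries, and Osmr at 22.7 and 12.9 CPM in CD106+ libraries and 15.0 and 18.48 CPM in CD106- libraries (-0.16 and 0.051, edgeR adjusted p = 0.84 and 0.97). Stat3 stood at 40.5 and 76.7 CPM in CD106+ libraries and 53.9 and 59.8 CPM in CD106- libraries, and Socs3 at 12.4 and 27.2 CPM in CD106+ libraries and 10.4 and 14.1 CPM in CD106- libraries (-0.018 and 0.62, edgeR adjusted p = 0.98 and 0.54). The signs of Lifr, Osmr and Stat3 turned when single libraries were left out. The ligand genes were again too low to be tested, with Il6 at 0 and 0.140 CPM in CD106+ libraries and 0 in both CD106- libraries, Lif at 0.802 and 1.82 CPM in CD106+ libraries and 1.15 and 0.832 CPM in CD106- libraries, and Il11 at 0 and 0.421 CPM in CD106+ libraries and 1.73 and 1.50 CPM, 9 counts each, in CD106- libraries.

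Of the STAT3 target genes, 2 rose, 2 fell and 16 of 20 did not pass between CD106+ and CD106- cells (median log2 fold change 0.061, against 0.046 over all genes tested). Cebpd rose, at 30.8 and 37.3 CPM in CD106+ libraries against 7.01 and 6.06 CPM in CD106- libraries (2.35, SE 0.42, edgeR adjusted p = 0.00034). Fgg, a fibrinogen chain gene, rose as well, at 3.61 and 13.6 CPM against 0.385 and 0.333 CPM in CD106- libraries (4.44, SE 0.93, edgeR adjusted p = 0.0020). With 4 counts over both CD106- libraries, Fgg passed the filter on low counts through the CD106+ libraries alone. Its log2 fold change ran from 3.29 to 5.06 with each library left out, and it was not called without CD106+ library 2. The adhesion gene Icam1 and the cyclin gene Ccnd1 fell, by 1.05 and 1.08 on the log2 scale (edgeR adjusted p = 0.0096 and 0.011), and neither was called without CD106- library 1 (edgeR adjusted p = 0.12 and 0.29) or CD106- library 2 (edgeR adjusted p = 0.20 and 0.081). Of 9 inflammatory genes 1 rose, the TNF receptor gene Tnfrsf1a, at 20.3 and 47.7 CPM in CD106+ libraries against 11.0 and 13.2 CPM in CD106- libraries (1.42, SE 0.42, edgeR adjusted p = 0.029), a call lost without CD106+ library 2 or either CD106- library (edgeR adjusted p of 0.11 to 0.37). Of 13 other SOCS genes and inhibitors, 8 JAKs and STATs, 3 ligand genes and 1 receptor gene, 0 passed, with Socs4 (-0.90, edgeR adjusted p = 0.068) and Stat5b (1.06, edgeR adjusted p = 0.15) among those nearest.

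In the treated CD106+ library Il11, Lif, Osmr, Stat3 and Il6ra were at least 2-fold higher than in each untreated CD106+ library, while Socs3 lay between them and Il6 was too low to be compared. With 1 library there is no replicate check and no test, and ratios are log2 of CPM plus 1 over the mean of the untreated libraries, for genes at 10 CPM or more in any of the 3. Of 9 members high enough to compare, 5 were at least 2-fold higher, where 11.5% of 10166 genes compared were and 9.00% were against each untreated library, and 0 were at least 2-fold lower, where 18.3% were. The median ratio of the 9 was 1.50, against -0.24 over all genes compared. Il11 and Lif passed the limit of 10 CPM through the treated library alone, so these counts describe the library and support nothing further.

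Il11 stood at 22.7 CPM, 86 counts, in the treated CD106+ library and at 0 and 0.421 CPM, 0 and 3 counts, in the untreated CD106+ libraries. The linear ratio to the pooled untreated counts was 91.7 (95% interval 30.3 to 453, exact, counting error only). Lif stood at 17.4 CPM, 66 counts, in the treated library and at 0.802 and 1.82 CPM in the untreated CD106+ libraries, a ratio of 12.4 (7.20 to 22.6). Il6 stood at 2.11 CPM, 8 counts, in the treated library against 0 and 0.140 CPM in the untreated libraries, a ratio of 25.6 (3.43 to 1135). These levels are below the limit of 10 CPM, so Il6 is not among the members compared above. Il11, Lif and Il6 were each higher in this library than in any other bulk library of the study.

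Among receptor chains Osmr differed most, at 166 CPM in the treated CD106+ library and 22.7 and 12.9 CPM in the untreated CD106+ libraries (log2 ratio 3.15), a level within the range of the saline mesenchyme pools. Il6ra stood at 42.2 CPM against 10.0 and 18.503 CPM in the untreated CD106+ libraries (1.50). Il6st stood at 495 CPM against 345 and 376 CPM in the untreated libraries (0.46). These 3 lay above both untreated libraries, as did 30.2% of genes compared. Lifr and Il11ra1 lay below both, as did 47.9%, with Lifr at 195 CPM against 210.3 and 206 CPM in the untreated libraries (-0.091) and Il11ra1 at 9.21 CPM against 9.62 and 15.1 CPM in the untreated libraries (-0.39). Stat3 stood at 249.6 CPM against 40.5 and 76.7 CPM in the untreated CD106+ libraries (2.07), the highest level in any bulk library. Socs3, at 22.4 CPM, lay between the untreated libraries, at 12.4 and 27.2 CPM (0.17).

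**Figure D3:**
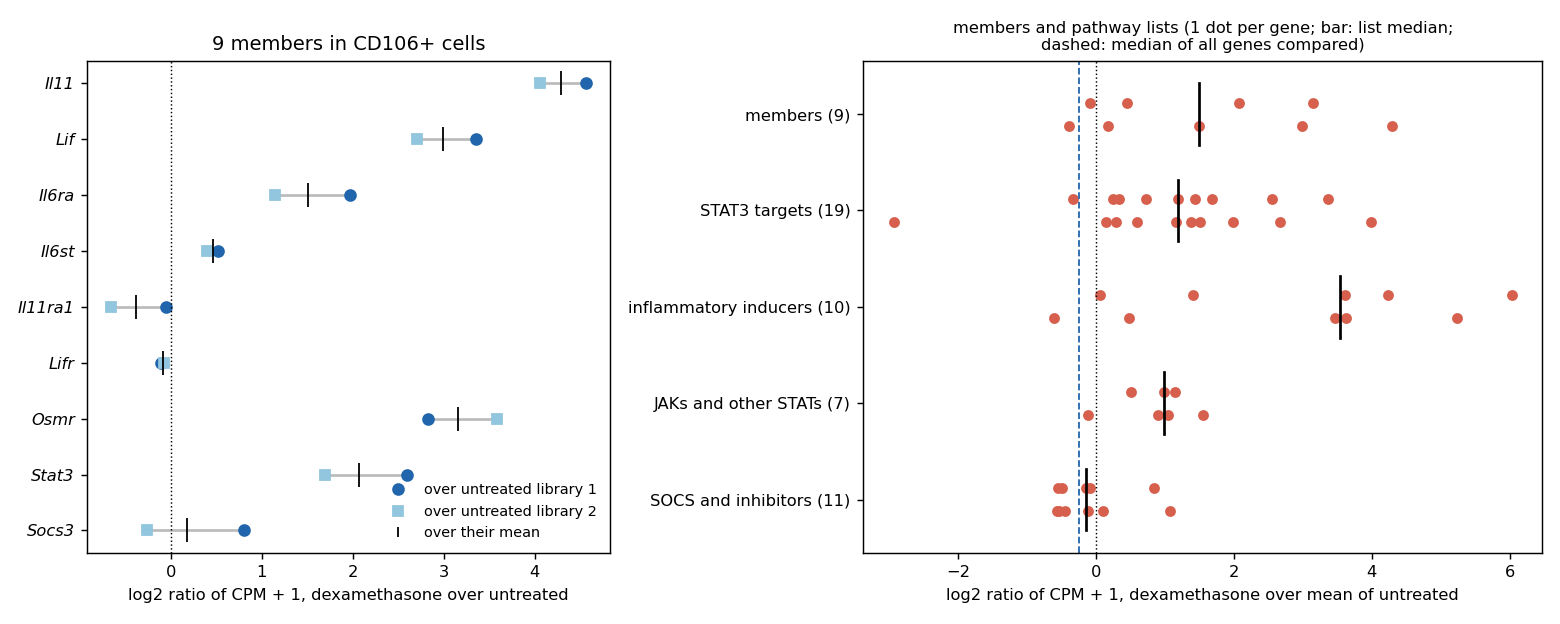
Log2 ratio of CPM plus 1 of the dexamethasone CD106+ library (horizontal axis), on the left for 9 members over each untreated CD106+ library and over their mean, on the right for members and pathway lists with 1 dot per gene compared and the list median as a bar. Il11, Osmr and Lif stood at 4.29, 3.15 and 2.99 over the mean, and Lifr, Il11ra1 and Socs3 near 0, and the dashed line marks the median of all genes compared, -0.24.

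The pathway lists were mixed in this library. Of 19 STAT3 target genes compared, 11 were at least 2-fold higher, 10 of them against each untreated library, and 1 was at least 2-fold lower (median ratio 1.19), where 11.5%, 9.00% and 18.3% of genes compared were. Of the 11, 3 (Ier3, Pim1 and Cebpb) reached 10 CPM through the treated library alone, which fixes their direction. Ier3, an immediate early stress gene, stood at 129.8 CPM in the treated library against 6.42 and 8.13 CPM in the untreated CD106+ libraries (3.98), and Il4ra, the interleukin-4 receptor gene, at 120.3 CPM against 4.41 and 17.1 CPM in the untreated libraries (3.37). Fgg was the gene at least 2-fold lower, at 0.264 CPM against 3.61 and 13.6 CPM in the untreated libraries (-2.93), and reached 10 CPM in untreated library 2 alone. Fos, Mcl1, Pim3 and Bcl2l1 lay between the untreated libraries. Of 10 inflammatory genes 7 were at least 2-fold higher, 6 of them against each untreated library, but 5 of the 7 reached 10 CPM through the treated library alone, which fixes their direction, so the count supports nothing. Among these 5 was Ptgs2, the inducible cyclooxygenase gene, with 667 counts against 21 over both untreated libraries (linear ratio 102, 65.9 to 165). Tnf, Il1a and Il1b are cytokine genes known to induce IL-6 family ligands. They had 27, 43 and 16 counts in the treated library and 0 in both untreated libraries. Against 3 counts over the untreated group these were 28.8-, 45.8- and 17.1-fold higher, leaving out the counting error of the treated library. Tnf and Il1b, at 7.12 and 4.22 CPM in the treated library, were below the limit of 10 CPM, and Il1a reached it through that library alone. Of 7 JAKs and other STATs 3 were at least 2-fold higher (median 0.99), among them Stat2 at 1.15 and Jak1 at 1.04, and of 11 other SOCS genes and inhibitors 1 was, Cish at 1.07, which reached 10 CPM through the treated library alone (median -0.15). The receptor gene Cntfr was lower, at 1.32 CPM, 5 counts, against 8.82 and 13.6 CPM in the untreated libraries (-2.40). It reached 10 CPM in untreated library 2 alone, and 18.3% of genes compared were at least 2-fold lower.

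Markers of other cells moved with these ratios. Endothelial markers summed to 2380 CPM in the treated CD106+ library, with 8 of 8 detected, and to 122 and 95.6 CPM in the untreated CD106+ libraries, with 7 and 8 detected and Cldn5 at 0 in untreated library 1. Pecam1 stood at 508 CPM in the treated library against 22.1 and 16.54 CPM in the untreated libraries, and Cdh5 at 1043 CPM against 52.3 and 35.0 CPM in the untreated libraries. Leukocyte markers summed to 114 CPM in the treated library, with 8 of 10 detected and C1qa and C1qb at 0, and to 7.82 and 18.6 CPM in the untreated libraries. Mesothelial, erythroid and chondrocyte sums were higher too, at 70.4, 56.7 and 178 CPM in the treated library. The untreated libraries held 18.2 to 22.6, 7.90 to 10.4 and 83.5 to 97.2 CPM. Within these lists the markers were mixed. Msln and Upk1b, at 36.7 and 28.2 CPM, and Wt1 lay above both untreated libraries, but Upk3b, Lrrn4 and Aldh1a2 lay below both. Hapln1, at 131 CPM, and Acan lay above both, but Sox9, Col9a1 and Col11a2 lay below both and Col2a1 between them. The erythroid marker Slc4a1 lay below both. Epithelial markers summed to 1406 CPM in the treated library against 2582 and 4229 CPM in the untreated libraries, and mesenchyme markers to 3648 CPM against 4476 and 6725 CPM in the untreated libraries, both lower than in either. The mesenchyme markers were mixed. Col1a2, Col3a1, Pdgfra, Dcn and Lum lay below both untreated libraries. Tcf21, at 179 CPM, lay above both, and Col1a1, Meox2 and Twist2 lay between them. Smooth muscle and pericyte markers summed to 328 CPM in the treated library against 357 and 762 CPM in the untreated libraries, and cardiac muscle markers to 376 CPM against 4387 and 137 CPM in the untreated libraries. Of the smooth muscle and pericyte markers, Tagln, Pdgfrb and Notch3 lay above both untreated libraries. Myh11, Cnn1, Des and Rgs5 lay below both, and Acta2 and Cspg4 between them. The part of these cells in the members' ratios was not tested, and treatment, library and cell content cannot be told apart with 1 library.

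The order of the groups differed between members. For Il6ra the group means in falling order were dexamethasone mesenchyme at 192 ± 36.7 CPM (SD, n = 4), saline mesenchyme at 42.8 ± 9.80 CPM (n = 2), treated CD106+ cells at 42.2 CPM (n = 1), untreated CD106+ cells at 14.3 ± 5.99 CPM (n = 2) and CD106- cells at 1.38 ± 0.868 CPM (n = 2), and of these neighbours only saline mesenchyme and treated CD106+ cells overlapped. Lifr was likewise highest in dexamethasone mesenchyme, at 449.8 ± 39.5 CPM, then in saline mesenchyme, at 299 ± 45.9 CPM, and the CD106 groups lay at 195 to 226 CPM, where CD106- and untreated CD106+ libraries overlapped. Osmr stood at 174 ± 21.0 CPM in dexamethasone mesenchyme, 166 CPM in treated CD106+ cells and 140.4 ± 87.5 CPM in saline mesenchyme, which overlapped, and at 17.8 ± 6.90 and 16.7 ± 2.46 CPM in untreated CD106+ and CD106- cells, which overlapped each other. Il6st spanned the least of the members with a count in every library, its highest library being 1.74 times its lowest, and Il6ra the most, at 294 times. Socs3 was lowest in dexamethasone mesenchyme, at 5.83 ± 0.832 CPM, and its other 4 groups, at 10.7 to 22.4 CPM, overlapped with their neighbours in the order.

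Among the genes with the profile most like that of Lifr over the 11 bulk libraries, by the root mean square difference between centred log2 profiles among 8783 genes, were Ep300 (0.12), Tmem106b (0.16), Esyt2 (0.17) and BC030336 (0.18), where the median over those genes was 0.84. For Socs3 they were Fkbp2 (0.25), Heatr3, Ltv1, Vopp1 and Erdr1 (0.31), with a median of 0.81. For Il6, whose profile is near 0 in all but a few libraries, they were Cfl1 (0.24), Phax, Hivep2, Ganc and Dlc1 (0.27), with a median of 0.77. The libraries share groups and depth, so these are descriptions of likeness only.

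In single cells 24 h after the 2 mg/kg dose, Socs3 was at or near 0 in every dexamethasone cell and high in 3 saline cells, and ligand transcripts were not detected beyond 1 count. The labels name no animal, so each group is 1 sample of cells and no test was made. Depth ran from 215623 to 1781606 counts in dexamethasone cells and from 879285 to 1787997 in saline cells, and 1 index name occurred in both groups. Il11 and Lif had 0 counts in all 26 cells (exact 95% upper limit 21.8% of dexamethasone cells and 28.5% of saline cells), and Il6 had 1 count in 1 saline cell. Sftpc, an epithelial transcript, had counts in all 26 cells and 100 CPM or more in 8 of 15 dexamethasone cells and 4 of 11 saline cells, while Epcam was at 0 in all. Shares of cells below these are therefore given as values and not read as expression. The drug response gene Tsc22d3 averaged 156 CPM over dexamethasone cells and 772 CPM over saline cells, so it was not higher in the treated cells at this time.

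Socs3 ran from 0 to 6.12 CPM in the 15 dexamethasone cells, with a median of 0 and a mean of 0.473 CPM, and from 0 to 666 CPM in the 11 saline cells, with a median of 0 and a mean of 133 CPM. It reached 100 CPM in 0 of 15 dexamethasone cells (exact 95% interval 0 to 21.8%) and in 3 of 11 saline cells (27.3%, exact 95% interval 6.02 to 61.0%), namely saline cells 4, 5 and 7 at 666, 434 and 360.2 CPM. These intervals treat the cells of 1 sample as separate draws and cover counting error only. The 3 cells differed in their markers: all held 100 CPM or more of Pdgfra, a mesenchyme marker, but Col1a1 stood at 0, 628 and 3.92 CPM and Vcam1 at 0, 160.4 and 0 CPM in saline cells 4, 5 and 7. Saline cell 7 also held 196 CPM of Pecam1 and 194 CPM of Cdh5, both endothelial markers. Cells thinned to 406877 counts, which left 13 dexamethasone and 11 saline cells, gave a mean of 0.378 CPM over dexamethasone cells and 128 CPM over saline cells. Socs3 passed the limit of 10 CPM for comparison through the saline cells alone.

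Il6ra averaged 9.99 CPM over dexamethasone cells and 73.4 CPM over saline cells, in the opposite order to the mesenchyme pools. It passed the limit of 10 CPM for comparison through the saline cells alone. The saline mean rested on saline cell 1, at 791 CPM, which also held 1087 CPM of Il6st, 1956 CPM of Stat3 and 1099 CPM of the endothelial marker Pecam1. Pecam1 reached 100 CPM in 1 dexamethasone cell and 5 saline cells, and without these cells Il6ra averaged 9.30 CPM over dexamethasone cells and 1.24 CPM over saline cells. The log2 ratio of mean CPM plus 1 was -2.76 over all cells and 2.20 without them, a setting chosen after seeing the data.

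Lifr was at 100 CPM or more in 7 of 15 dexamethasone cells and 3 of 11 saline cells and ran from 0 to 3406 CPM, with a median of 56.8 CPM, in dexamethasone cells and from 6.23 to 5252 CPM, with a median of 41.9 CPM, in saline cells. Stat3 reached 100 CPM in 4 of 15 dexamethasone cells and 6 of 11 saline cells, with means of 182 CPM over dexamethasone cells and 373 CPM over saline cells. Il6st reached 100 CPM in 3 of 15 dexamethasone cells and 2 of 11 saline cells, with means of 86.1 CPM over dexamethasone cells and 179.9 CPM over saline cells. These 3 genes overlapped widely between the groups. Osmr averaged 42.8 CPM over dexamethasone cells, where cell 15 held 521 CPM, and 15.7 CPM over saline cells, and Il11ra1 averaged 32.9 CPM over dexamethasone cells and 46.2 CPM over saline cells, each mean resting on 1 or 2 cells. Il6st and another receptor chain both reached 100 CPM in few cells. These were saline cell 1 for Il6ra, dexamethasone cell 13 and saline cell 11 for Lifr, and dexamethasone cell 15 for Osmr. Of the 7 members compared, 1 (Osmr) was at least 2-fold higher and 4 at least 2-fold lower by mean CPM, where 29.4% and 37.0% of 8804 genes compared were. Among the lower members, Il6ra and Socs3 passed the limit of 10 CPM through the saline cells alone, which fixes their direction. These counts are therefore a description only.

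**Figure D4:**
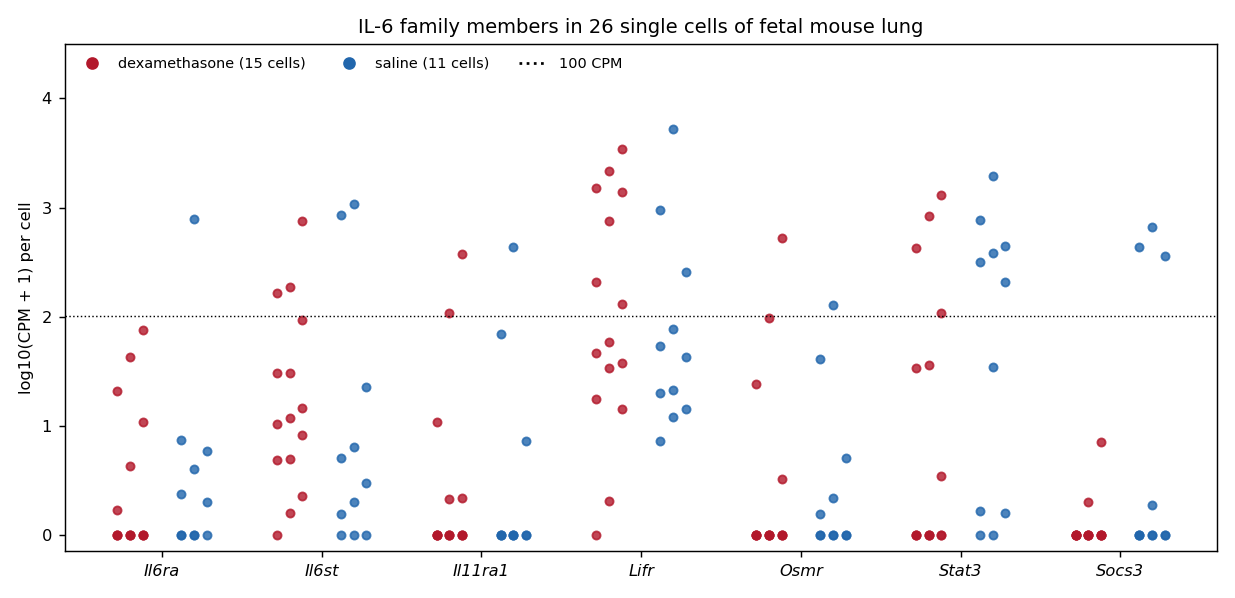
Level of 7 members per cell as log10 of CPM plus 1 (vertical axis), 1 point per cell, for 15 dexamethasone and 11 saline cells, with a dotted line at 100 CPM. Socs3 lies above the line in 3 saline cells and in no dexamethasone cell, and Lifr is spread over 0 to 3406 CPM in dexamethasone cells and 6.23 to 5252 CPM in saline cells.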

How the data were processed

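The samples with RNA counts are 11 bulk libraries and 26 individual cells. The authors deposited 4 tables of expected counts by gene symbol: in each bulk library 5.35 to 9.21% of values carried a fraction. The submitters' processing notes name mm10 and list TopHat2, Partek, Bowtie2, Trim Galore, HOMER and MACS2 without roles. How reads were assigned to genes, and whether by strand, is not given in the sources used here, so near-identical copies are uncertain. Rn45s, the ribosomal RNA precursor, held 0.902 to 9.83% of bulk counts. The treated CD106+ column was assigned through its table, which the description of that sample alone names.

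Expected counts were rounded, filtered with filterByExpr, scaled by TMM and compared by edgeR's robust quasi-likelihood test with Benjamini-Hochberg adjustment at 0.05 over all genes, with only the compared groups in each fit (R 4.3.3, edgeR 4.0.16, limma 3.58.1, DESeq2 1.42.0). Levels are CPM of the column total. Comparisons with 1 sample in a group used log2 ratios of CPM plus 1 among genes at 10 CPM or more in any of the 3 CD106+ libraries or, for cells, in the mean of either group, with exact intervals for counting error only. The members and lists were chosen with earlier results of these data known. Named genes are all members and, of each pathway list, up to 4 genes by smallest p; pathway genes named in the treated CD106+ library, and Sftpc, Epcam, Lyz2 and C1qa, were chosen after their values were seen. Some genes that these rules name are not reported here. On simulated counts the test found 12% of planted log2 changes of size 1 and 64% of those of size 2 in the mesenchyme design (10903 genes), and 14% and 77% in the CD106 design (12106 genes). In these simulations 10 of 86 calls in the mesenchyme design and 7 of 98 in the CD106 design were false. No replicate pair agreed within sampling noise (chi-square per degree of freedom 9.94 to 40.4). No clusters were made and no doublet caller was run. Of 24371 symbols, 23065 matched the RefSeq table that gave the positions. Alternatives were other scalings, filters and tools, a block for the replicate number, omission of each library, other pseudocounts, thinned cells and, after seeing the data, removal of Rn45s, of X and Y genes and of Pecam1 cells. Plots were made with matplotlib 3.10.9.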

Additional observations from a re-analysis of the deposited data

Results flagged for a closer look

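Lif in the dexamethasone mesenchyme pools stood apart in pool 2, at 2.72 CPM or 8 counts against 0 to 0.450 CPM in the other 3, a gap of 0.834 of the group's range. Chance flags about 1 group of normally distributed values in 20 in this way. All members with a count in these pools were examined, so a flag somewhere among them is more likely than that. The Lif values are low counts with ties at 0, for which the rate of 1 in 20 need not hold. For Lifr, all 4 dexamethasone mesenchyme pools lay above both saline pools, as in 9.99% of genes tested. This difference did not pass the test (edgeR adjusted p = 0.15). The dexamethasone CD106+ library lay below both untreated CD106+ libraries, as did 47.9% of genes compared. There the Lifr log2 ratio was only -0.091, and it was 0.027 with TMM-scaled library sizes. Whether the effects in mesenchyme and CD106+ cells differ was not tested.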

How the results depend on the processing

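Il6ra was called in mesenchyme under all 16 alternatives and in the CD106 fractions under all but the removal of CD106- library 1, so the number of members called there ran from 0 to 1 with libraries left out. Of 11356 genes, 512 were called in mesenchyme by DESeq2 and 154 with the replicate block, 598 of 19204 were called with no filter, and 179 to 335 were with each pool left out. In the CD106 fractions 546 to 2756 were called with each library left out. Deviations of libraries with the same replicate number correlated at -0.035 to 0.12. With 2 libraries in a group this cannot show whether the numbers pair the samples. The CD106+ and CD106- libraries share the numbers 1 and 2, which the main fit does not use. In mesenchyme the block ended the call of Socs5 (edgeR adjusted p = 0.13). In mesenchyme Osmr ran from -0.19 to 1.28 with pools left out, and Ctf1 from -0.94 to 0.84, and was 0.037 with the replicate block. Between CD106+ and CD106- cells, libraries left out gave -0.35 to 0.039 for Lifr, -0.50 to 0.46 for Osmr, -0.46 to 0.32 for Stat3 and -0.34 to 0.13 for Cntfr, and Osmr was -0.085 by limma-voom and -0.0072 with the replicate block and Stat3 0.049 with library totals only. In single cells 2 members were at least 2-fold apart with pooled counts and 3 with thinned cells, against 5 by mean CPM, and Il6ra turned to 2.20 without Pecam1 cells. In the treated CD106+ library 5 members were at least 2-fold higher under all 5 alternatives. Without Rn45s in the total, 9 of 10 members kept the order of the groups. The causes were not tested. Fits without a saline pool or a CD106 library hold 1 library in that group, assumed to vary like the others. Depth limits Il6, Il11 and Lif, which were too low to test, and Socs3 in the mesenchyme pools.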
